A study of Zea mays with 10 samples.

Results

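The genes described here are the 4 maize genes for the cytosolic form of glyceraldehyde-3-phosphate dehydrogenase (GAPDH): gpc1 (GRMZM2G046804), gpc2 (GRMZM2G180625), gpc3 (GRMZM2G071630) and gpc4 (GRMZM2G176307). They are 4 of the 39636 gene models in the expression table and were picked out by gene ID. They were selected on their levels in mutant against sibling ears, which had been seen when the family was taken up. The comparison of these genotypes is therefore given for the 4 genes as a description, with no test.

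GAPDH carries out the middle step of glycolysis, in which glyceraldehyde-3-phosphate is oxidised and NAD+ is reduced to NADH. Under low oxygen, plant cells cannot pass this NADH to respiration and regenerate NAD+ by fermentation, through pyruvate decarboxylase and alcohol dehydrogenase. In maize seedlings gpc3 and gpc4 are known as the copies that low oxygen induces, whereas gpc1 and gpc2 are known as the copies expressed in normal air. Other GAPDH forms work elsewhere: the plastid enzyme of photosynthesis is built from the products of gpa and gpb genes, and gpn1 encodes a non-phosphorylating enzyme of the cytosol.

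RNA was sequenced from ear primordia of 1 mm, which are young female inflorescences made mostly of meristems, collected from segregating families in the field. Each of the 6 libraries came from its own pool of more than 10 ears, 3 pools from homozygous fea4/fea4 mutants and 3 from heterozygous fea4/+ plants, called siblings here. The siblings look normal but carry 1 mutant copy of FEA4, whose product is a bZIP transcription factor that limits meristem size. The reference allele was made by EMS mutagenesis of the inbred A619 and crossed into several inbred lines. The labels do not tie the pools to an allele or an inbred. Library totals ran from 8168955 fragments (mutant replicate 2) to 28323324 (mutant replicate 3). Of the ear markers, all 8 with a name were detected, at a summed level of 1080 to 1210 CPM in siblings and 892 to 1220 CPM in mutants (CPM being counts scaled to the library total with TMM factors), of which kn1 alone made up 734 to 1043 CPM. Some other ear markers were below every sibling pool in all mutant pools: ra3 (132 to 145 CPM in siblings, 60.5 to 70.0 in mutants), ba1 (25.9 to 29.0 and 13.7 to 14.5), ra1 (8.14 to 11.7 and 2.58 to 6.61) and fea2 (41.2 to 50.4 and 37.4 to 40.3). Among the 20618 genes that passed the filter on low counts, 10.5% were separated in this direction. The groups overlapped for td1 (26.5 to 40.8 CPM in siblings, 16.2 to 28.1 in mutants) and zfl1 (16.4 to 22.2 and 16.1 to 25.3). For bd1 the siblings had 0.571 to 1.66 CPM and the mutants 0. The part of these differences in the GAPDH values was not tested. Of 9 rubisco and light-harvesting genes, which mark green leaf, 3 were at 0 in all libraries and the highest single value was 1.141 CPM. The wider list of 24 leaf symbols was matched only by the letters they start with, and genes of other kinds were not set aside. It summed to 107 to 123 CPM in siblings and 122 to 136 CPM in mutants, mostly from psat1 and from 2 genes entered as PPDK. In this list 6 members were at 0. Without pdk1, 1 of the PPDK genes and a list gene below, the sums were 95.8 to 113 CPM in siblings and at least 93.9 CPM in mutants, with overlapping ranges. Its pollen and seed counterpart, 3 globulin genes, summed to 4.65 to 9.23 and 1.84 to 3.62 CPM, with 1 gene at 0.

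All 4 genes were expressed at high levels in every pool. Siblings held 9949, 9386 and 11552 fragments of gpc1 in replicates 1 to 3, and mutants held 8758, 3489 and 13607. For gpc2 the siblings had 5644, 6203 and 6263 fragments and the mutants 6324, 2972 and 9590. For gpc3 these numbers were 4816, 5089 and 5225 in siblings and 7287, 3300 and 10522 in mutants. They were lowest for gpc4, with 2857, 3399 and 3469 fragments in siblings and 4880, 2320 and 8705 in mutants. The mutant numbers follow the unequal library totals, so the levels below are scaled. At these depths the counting error was 0.857% to 2.08% of a value, while the spread between pools of a group (coefficient of variation of CPM) was 3.76% to 11.6%, so differences between pools, not counting, set the precision.

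In sibling ears gpc1 was the leading copy. Per length of transcript it stood at 381.9, 331.0 and 351.4 FPKM (fragments scaled to transcript length and library total) in the 3 siblings, and ranked 133rd of the 39636 gene models by mean FPKM. For gpc2 the sibling levels were 170.4, 160.9 and 150.1 FPKM, and for gpc3 161.1, 154.6 and 137.8 FPKM. The ranges of gpc2 and gpc3 overlapped, yet gpc2 was above gpc3 in each sibling pool, by a ratio of 1.06 ± 0.0248 (SD, n = 3). The lowest copy was gpc4, at 118.8, 124.9 and 113.6 FPKM, below every sibling value of the other 3 genes. The ratio of gpc1 to gpc4 was 2.99 ± 0.297 (SD, n = 3).

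The order of the copies was different in the mutants. There gpc1 had 291.7, 280.3 and 323.5 FPKM and remained the highest copy, but gpc3 came next with 222.3, 228.3 and 229.3 FPKM. Next was gpc4, with 177.4, 197.5 and 225.9 FPKM, a range that overlaps that of gpc3. The lowest copy was now gpc2, with 168.7, 175.2 and 176.7 FPKM, just under the lowest gpc4 value. By mean FPKM among all gene models, gpc1 ranked 236th in mutants, gpc3 went from 504th in siblings to 340th, and gpc4 from 711th to 402nd. The rank of gpc2 was 460th and 486th.

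**Figure D1:**
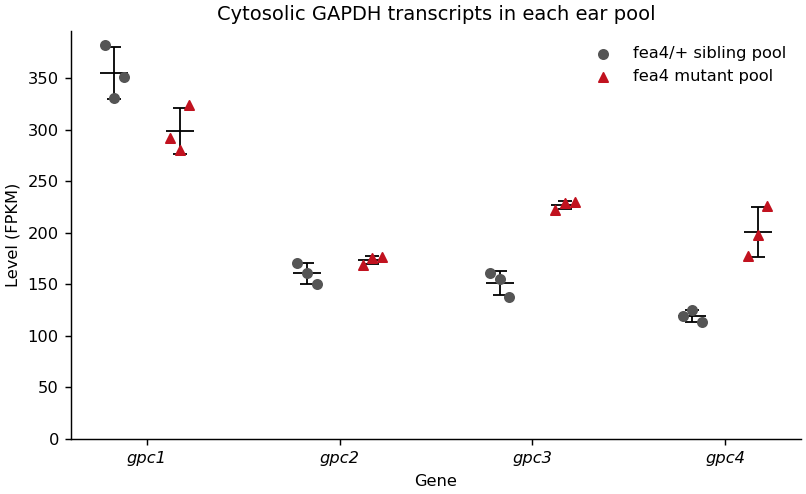
Level of each cytosolic GAPDH gene (FPKM, linear axis from 0) in the 3 fea4/+ sibling pools (grey circles) and the 3 fea4 mutant pools (red triangles), with group means and SD as bars. For gpc3 and gpc4 the mutant pools all lie above the sibling pools, for gpc1 they all lie below, and for gpc2 the groups overlap.

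Set against each other, the genotypes differed in opposite directions for different copies. By ratio the difference was largest in gpc4, a low-oxygen copy, which averaged 176.1 CPM ± 11.6 over the siblings and 285.2 CPM ± 33.2 over the mutants (SD, n = 3 each), 1.62 times as much. Its log2 fold change in the edgeR fit was 0.70 ± 0.10 (SE). Every mutant pool was above every sibling pool, and the mutant pools themselves were spread from 252.2 to 318.6 CPM. The other low-oxygen copy, gpc3, averaged 275.1 CPM ± 24.0 over the siblings and 388.9 CPM ± 14.6 over the mutants (SD, n = 3 each), 1.41 times as much, with a log2 fold change of 0.50 ± 0.10 (SE). In CPM its difference of 113.8 was slightly above the 109.1 of gpc4. Its 3 mutant pools lay close together, between 376.5 and 405.1 CPM, and all above the highest sibling pool at 295.2 CPM.

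The copies of normal air did not share this pattern. The gpc1 mean was 559.6 CPM ± 45.9 over the siblings and 459.6 CPM ± 35.4 over the mutants (SD, n = 3 each), or 82.1% of the sibling level, with a log2 fold change of −0.28 ± 0.10 (SE). The gap between the groups was narrow: the highest mutant pool had 498.0 CPM and the lowest sibling pool 519.6 CPM. For gpc2 the means were 329.1 CPM ± 27.1 and 347.5 CPM ± 19.3 (SD, n = 3 each), with a log2 fold change of 0.08 ± 0.10 (SE), and the pools of the genotypes were interleaved. In the authors' deposited table the log2 fold changes were −0.28 for gpc1, 0.08 for gpc2, 0.50 for gpc3 and 0.70 for gpc4. Thus 2 of the 4 genes had all mutant pools above all sibling pools and 1 had them all below. Among the 20618 genes that passed the filter on low counts, as all 4 genes did, the shares with such a separation were 10.2% and 10.5%. Because these values chose the genes, nothing is read from that comparison. In bulk tissue of this kind, fewer cells of a type and less RNA per cell cannot be told apart.

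The make-up of the family differed more than its total. Of the summed FPKM of the 4 genes, gpc1 made up 45.9%, 42.9% and 46.7% in siblings, against 33.9%, 31.8% and 33.9% in mutants. The share of gpc4 was 14.3%, 16.2% and 15.1% in siblings against 20.6%, 22.4% and 23.6% in mutants. That of gpc3 was 19.4%, 20.0% and 18.3% against 25.8%, 25.9% and 24.0%. In these 3 genes no mutant share lay within the sibling range. The share of gpc2 was nearly level, at 20.4% ± 0.460 and 19.3% ± 0.738 (SD, n = 3 each), and whether its groups overlapped depended on the unit, since they did in fragments and did not in FPKM. Together gpc3 and gpc4 supplied 34.4% ± 1.57 of the family in siblings and 47.5% ± 0.931 in mutants (SD, n = 3 each), a gain of 13.1 percentage points, or of 11.8 points when shares were taken of fragments. Shares compare genes within 1 library, so library size does not enter them. The scaling of fragments to FPKM does enter the FPKM shares, and it was not the same for each copy in all libraries.

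**Figure D2:**
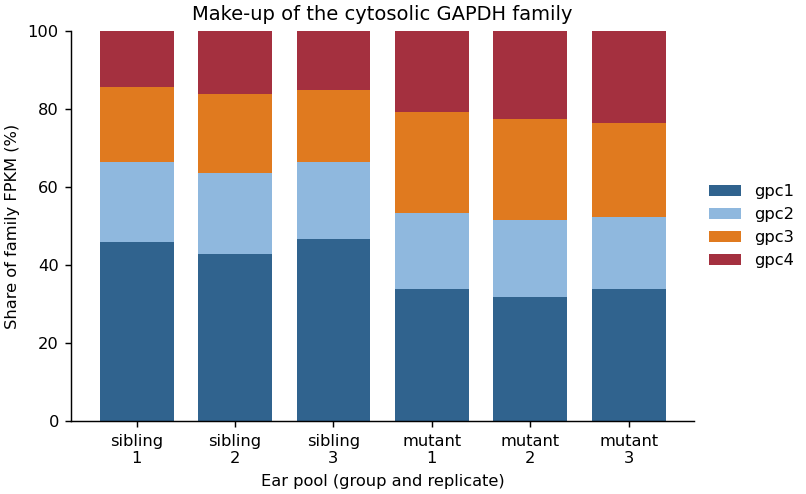
Share of each gene in the summed FPKM of the 4 cytosolic GAPDH genes (%, stacked to 100) in each ear pool. The lower blue segment (gpc1) takes 42.9% to 46.7% in siblings and 31.8% to 33.9% in mutants, and the orange and red segments (gpc3, gpc4) are wider in each mutant pool than in any sibling pool.

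The family total was only slightly higher in the mutants, and whether the groups separated depended on the scale. In FPKM the total was 832.2, 771.4 and 753.0 in siblings and 860.1, 881.3 and 955.4 in mutants, with no overlap and a mutant mean at 114.4% of the sibling mean. In TMM-scaled CPM it was 1426, 1333 and 1261 against 1408, 1483 and 1553, where mutant replicate 1 falls below sibling replicate 1. The difference of mean log2 CPM was 0.15 ± 0.07 (SE), and, with 1 library left out, ran from 0.10 without sibling replicate 3 to 0.19 without sibling replicate 1. As a share of all fragments in the library, the 4 genes took 0.137% ± 0.00964 in siblings and 0.145% ± 0.00673 in mutants (SD, n = 3 each), with overlapping groups. The difference in mean CPM, mutant minus sibling, was −99.98 for gpc1 and 222.9 for gpc3 and gpc4 together.

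Fragments that fit more than 1 copy limit how far single copies can be separated. The deposited fragments of gpc3 and gpc4 were not whole numbers in any of the 6 libraries, whereas their sum was whole in all 6 (within 0.01, or 0.05 above 10000). The sums of gpc3 or gpc4 with gpc1 or gpc2 were whole in 0 of 6 libraries. Some fragments had therefore been divided between gpc3 and gpc4 and none in fractions between these and the other copies, although the number divided cannot be read from the table. For gpc1 and gpc2 the values were whole in 5 of 6 libraries each, and their sum in all 6. The sum over gpc3 and gpc4, which the division cannot touch, was 470.3, 469.9 and 413.4 CPM in siblings and 628.7, 689.9 and 703.6 CPM in mutants. That is 1.49 times as much, with a difference of mean log2 CPM of 0.58 ± 0.08 (SE) and no overlap. The ratio of gpc3 to gpc4, which the division does touch, in FPKM, was 1.21 to 1.36 in siblings and 1.01 to 1.25 in mutants, so the groups overlapped.

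GAPDH is often used as a reference gene in transcript assays. Among siblings the coefficient of variation of CPM was 8.21% for gpc1, 8.23% for gpc2, 8.73% for gpc3 and 6.61% for gpc4. Among mutants it was 7.69%, 5.54%, 3.76% and 11.6% in the same order, so the copies kept no common order of spread within the genotypes. Over all 6 pools it was 12.9%, 6.89%, 19.5% and 27.6%, values that include the genotype difference on which the genes were chosen. Of the other reference genes with a name (tubulins, ubiquitins, elongation factor 1 alpha and an actin), 17 of 18 were tested. Of these 1 fell, 0 rose and 16 did not pass at an adjusted p of 0.05 (edgeR, quasi-likelihood, Benjamini-Hochberg; 0 higher and 4 lower unadjusted, 0 and 1 by DESeq2). Over all 20618 genes tested 1.4% were called higher and 1.08% lower. The gene that fell was tub6, a tubulin gene, with 165.7, 164.5 and 166.0 CPM in siblings and 117.8, 129.4 and 115.9 CPM in mutants (log2 fold change −0.45 ± 0.09, SE, edgeR adjusted p = 0.0125). Without sibling replicate 1, mutant replicate 1 or mutant replicate 3 its adjusted p was 0.0666, 0.0733 and 0.106, and by limma on log2(FPKM + 1) and log2(FPKM + 0.1) it was 0.0771 and 0.0850. The list's median log2 fold change was −0.17, against −0.01 for all genes tested. Of the 17 tested genes of the list, 1 had a value above 0, against 10037 of all 20618 genes tested. Among the steadiest of the list, elfa3 had −0.01 ± 0.09 and the ubiquitin gene MUB3 −0.05 ± 0.10 (SE, edgeR adjusted p = 0.968 and 0.846).

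Pathway neighbours of GAPDH were then set beside it, from lists of gene names that were written with earlier results of these data known. In the list for lower glycolysis, the steps after GAPDH, 3 of 3 genes rose, where 1.4% of all genes tested were called higher. The name search also took in 2 genes entered as PDK1, which were set aside as another kind and did not pass. With them 3 of 5 rose. The list held only eno1, eno2 and pdk1. No gene matched the names sought for phosphoglycerate kinase, phosphoglycerate mutase or pyruvate kinase, so those steps were not looked at. A further enolase gene, outside the list, did not pass (0.01 ± 0.15, SE, edgeR adjusted p = 0.983). The enolase genes eno2 and eno1 make phosphoenolpyruvate, and both were more abundant in each mutant pool. For eno2 the levels were 1324, 1306 and 1367 CPM in siblings and 1770, 1612 and 1821 CPM in mutants (log2 fold change 0.38 ± 0.10, SE, edgeR adjusted p = 0.0406). For eno1, which like gpc3 and gpc4 is known as a low-oxygen gene, they were 395.8, 389.5 and 405.9 against 501.4, 470.7 and 609.9 CPM (0.41 ± 0.10, SE, edgeR adjusted p = 0.0403). Both enolase calls were close to the threshold and held only without mutant replicate 2 among the 6 cases of leaving out 1 library. In the other 5 the adjusted p was 0.0728 to 0.240 for eno2 and 0.0763 to 0.314 for eno1, highest without mutant replicate 3. Both were also lost by limma on log2(FPKM + 1) and log2(FPKM + 0.1), with adjusted p of 0.132 and 0.1199 for eno2 and 0.101 and 0.106 for eno1. The other gene, pdk1, encodes pyruvate, orthophosphate dikinase, an enzyme of the C4 leaf that also interconverts pyruvate and phosphoenolpyruvate elsewhere. Its pools held 11.3, 12.1 and 9.94 CPM among siblings, and 30.3, 21.9 and 40.6 CPM among mutants (1.49 ± 0.21, SE, edgeR adjusted p = 0.000893). The list's median log2 fold change was 0.41, which lies between the values of gpc2 and gpc3.

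For the steps before GAPDH, none of the list genes passed. Of 6 upper glycolysis genes 0 rose, 0 fell and 6 did not pass (3 higher and 0 lower unadjusted, 1 and 0 by DESeq2), with a median log2 fold change of 0.18 and all 6 values above 0. Over all 20618 genes tested, 10037 had a value above 0, the unadjusted p passed for 1748 upward and 1589 downward, and DESeq2 called 538 and 355. The phosphofructokinase gene pfk1 had 0.46 ± 0.14 (SE, edgeR adjusted p = 0.0797) and the cytosolic aldolase gene ald1, whose product feeds GAPDH, 0.29 ± 0.11 (SE, edgeR adjusted p = 0.193). Of 8 sucrose cleavage genes 5 were tested, and 0 rose, 0 fell and 5 did not pass (1 higher and 0 lower unadjusted, 1 and 0 by DESeq2; median 0.36). The one past the unadjusted threshold was sh1, a sucrose synthase gene with 0.36 ± 0.10 (SE, edgeR adjusted p = 0.0595).

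Fermentation uses the NADH that GAPDH makes, and 2 of the 6 tested genes of that list rose, 0 fell and 4 did not pass (4 higher and 0 lower unadjusted, 3 and 0 by DESeq2; median 0.76). The 2 were adh1, the main alcohol dehydrogenase gene, with a log2 fold change of 0.98 ± 0.13, and the pyruvate decarboxylase gene pdc3, with 0.80 ± 0.13 (SE, edgeR adjusted p = 0.000483 and 0.00303). Over all genes tested 1.4% were called higher, but this list was written with earlier results of these data known. Of the 4 that did not pass, Hb had 2.89 ± 0.79 (SE, edgeR adjusted p = 0.0581), at means of only 0.372 CPM in siblings and 2.86 CPM in mutants. The others were adh2 with 0.72, adh1C with 0.26 and pdc2 with 0.16. In single pools adh1 stood at 185.6, 217.9 and 192.6 CPM for siblings and 346.3, 332.9 and 496.0 CPM in mutants, so mutant replicate 3 was the highest. That pool was the highest mutant for pdc3, eno1, eno2, pdk1, gpc4 and gpc1 as well, while mutant replicate 2 was the highest for gpc3 and gpc2. Without mutant replicate 3 the log2 fold change of gpc4 was 0.61 and that of gpc3 0.51.

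**Figure D3:**
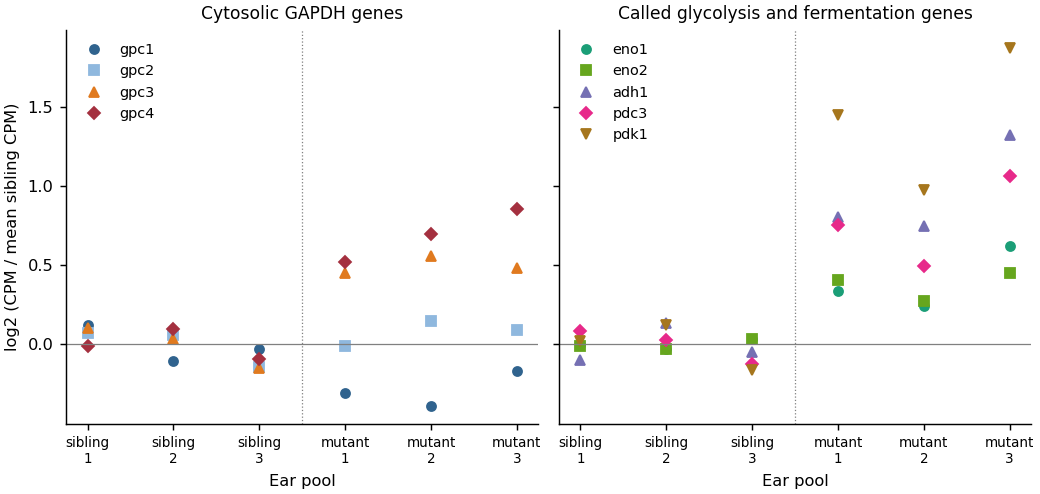
Level in each ear pool as log2 of CPM over the mean sibling CPM, for the 4 cytosolic GAPDH genes (left) and the 5 glycolysis and fermentation genes that rose (right), with a dotted line between genotypes. In mutant replicate 3 gpc4 reached 0.86 and adh1 1.32, whereas gpc3 was highest in mutant replicate 2 at 0.56, and gpc1 lay below 0 in all 3 mutant pools.

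The GAPDH genes of other compartments and kinds showed little. The plastid genes gpa1 and gpb1 were listed at 0 in all 6 libraries, where 3 counts would stand for 0.11 to 0.368 CPM, but 12154 gene models were listed at 0 throughout and a failed estimate cannot be told from absence. The non-phosphorylating gene gpn1, the 1 tested gene of the 3 in that list, averaged 12.7 CPM ± 2.74 over the siblings and 13.9 CPM ± 1.12 over the mutants (SD, n = 3 each). On the log2 scale the difference was 0.13 ± 0.22 (SE, edgeR adjusted p = 0.842; 0 higher and 0 lower unadjusted and by DESeq2). GAPCP, a GAPDH gene entered under the name used for the plastid enzyme of glycolysis, was missed by the list and was added later. It had 204.4 CPM ± 6.43 and 225.1 CPM ± 24.0 (SD, n = 3 each; 0.14 ± 0.10, SE, edgeR adjusted p = 0.521). An aldolase gene and an enolase gene entered only as aldolase2 and enolase were missed in the same way, with values of −0.48 ± 0.34 and 0.01 ± 0.15 on the log2 scale (SE, adjusted p = 0.526 and 0.983 by edgeR).

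**Figure D4:**
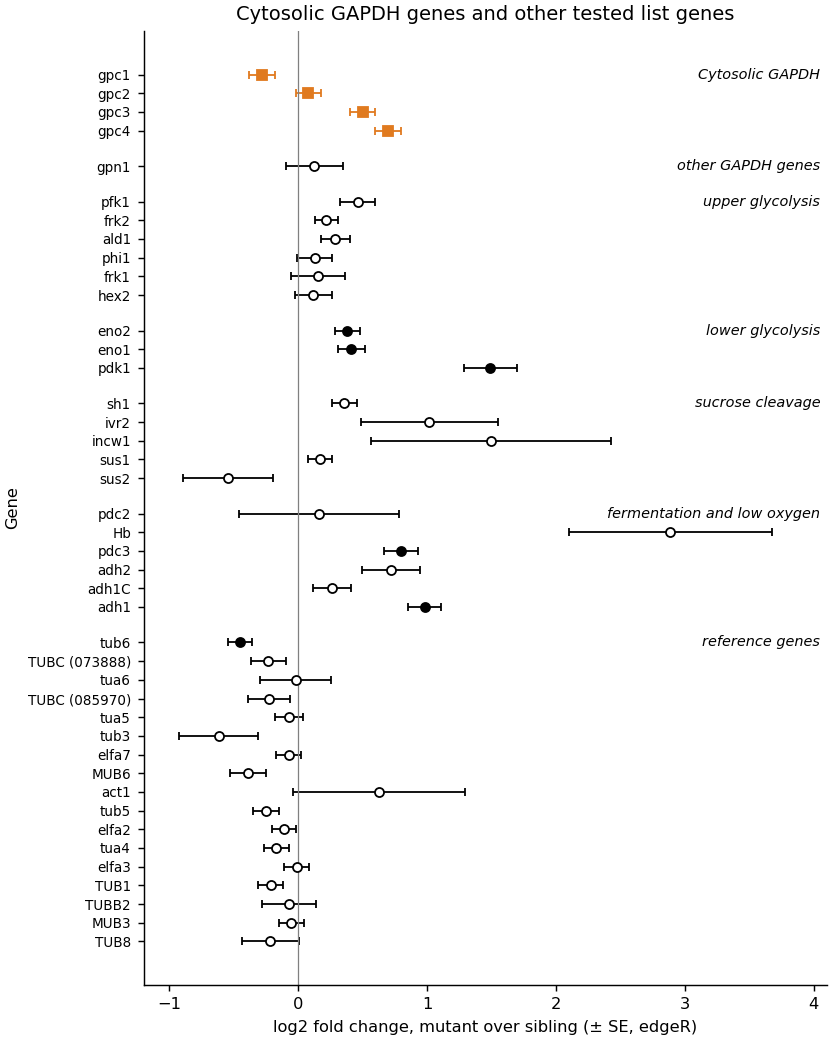
log2 fold change, mutant over sibling, with SE from the edgeR fit, for the 4 cytosolic GAPDH genes (orange squares, description only) and the tested genes of 6 lists (circles, filled where the adjusted p passed 0.05). Filled circles to the right are eno2, eno1, pdk1, pdc3 and adh1, the one to the left is tub6, and the orange squares run from −0.28 for gpc1 to 0.70 for gpc4.

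The genes whose levels over the 6 pools were most like those of each copy were sought among 1322 tested genes with a name and at least 10 CPM, by Pearson's r of log2(CPM + 1). With so many genes and 6 points, of which 3 and 3 share a genotype, high values arise for many genes and r is a description only. Closest to gpc3 were sdx1 (r = 0.996), HEAT-like (0.981) and fcr1 (0.978). Closest to gpc4 were the kinesin gene kin15 (r = 0.990), TIM (0.987) and rld2, a class III HD-ZIP gene (0.983). For gpc1 they were MPAO, a polyamine oxidase gene, PAPc and a Mediator subunit gene (GRMZM2G066981), at 0.961, 0.956 and 0.944. For gpc2 they were a MAP kinase gene (GRMZM2G002100), igl1 and rpl5, at 0.985, 0.925 and 0.919. Between the copies themselves gpc3 and gpc4, which share divided fragments, had r = 0.945, and gpc1 had −0.77 with gpc3 and −0.76 with gpc4.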

How the data were processed

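Groups and replicate numbers came from the sample titles. The p-values set the genotype difference against variation between these pools. Nothing says how the pools relate to separate families, so whether they are independent replicates of a genotype is not known. The authors deposited raw fragments per gene, which are expected counts and not all whole, and FPKM values normalised for length and library total. A log2 fold change per gene was also taken from the authors' deposited table. Per the submitters' processing notes, the tools included DESeq 1.14.0, Cufflinks 2.0.2, TopHat2 2.0.9 and CASAVA, listed without roles. Annotation and strand use in counting: not given in the sources used here.

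Expected counts were rounded and fitted over the whole table in R 4.3.3 by edgeR 4.0.16 (quasi-likelihood, robust, TMM, filterByExpr, genotype only, two-sided, Benjamini-Hochberg over 20618 genes, threshold 0.05), after the script was tested on simulated data. CPM used unrounded fragments. TMM factors were 0.966 to 1.035. DESeq2 1.42.0 and limma 3.58.1 served as alternatives. Counting intervals and floors cover counting error only.

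Names came from a RefSeq table (Zm-B73-REFERENCE-NAM-5.0), in which 18255 of 39636 IDs matched 1 entry. The 4 genes, the 6 lists (matched on symbol stems) and the tests were chosen with earlier results of these data known. The stems also took in 27 genes of other kinds, mostly homeobox genes named HB, which were set aside by name. With them, fermentation had 2 higher and 1 lower of 24 tested, and lower glycolysis 3 and 0 of 5. Named were the 4 genes, list genes that passed (at most 6 a list), and the 3 genes most like each copy. Other genes were named after their values had been seen. The ChIP-seq libraries (2 ChIP, 2 input) were not analysed here.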

Additional observations from a re-analysis of the deposited data

How the results depend on the processing

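The number of genes called by genotype was 512. DESeq2 called 893 and edgeR with no count filter 922, with 179 and 157 by limma on log2(FPKM + 1) and log2(FPKM + 0.1). Leaving out 1 library gave 156 to 811 genes: 182 without sibling replicate 1, 260 without sibling replicate 2, 229, 811 and 156 without mutant replicates 1, 2 and 3. The 6 calls in the pathway lists became 10 without the filter, 3 by limma on log2(FPKM + 0.1), and 3 to 8 with 1 library left out, with 3 each without sibling replicate 1, mutant replicate 1 and mutant replicate 3. With the replicate number as a block 719 genes and 8 list genes were called. Over all genes tested, same-numbered pools had r = −0.0146 to 0.00121 between their deviations from the group means. All pairs of a sibling and a mutant pool ran from −0.0187 to 0.0299. No pairing by number was seen, but values this near 0 for every pair cannot exclude one. The cause of these changes in the number of calls was not tested.

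The log2 fold changes of gpc1, gpc2, gpc3 and gpc4 kept their sign in all 12 alternatives and moved by less than 1 SD of replicates. They ranged from −0.34 to −0.22, from 0.01 (without sibling replicate 3) to 0.12, from 0.43 to 0.59 and from 0.61 to 0.78. The changes in family share ranged from −13.1 to −10.7 percentage points for gpc1 and from 6.05 to 7.84 for gpc4 in 7 alternatives. Calls of adh1, pdc3 and pdk1 held in all 12 alternatives. With 3 pools per genotype, the spread between pools exceeded the counting error of each copy.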
